A study of Mus musculus with 36 samples.

Results

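Polycomb repressive complex 2 (PRC2) genes were followed in sorted P-body, cytoplasm, polysome and total RNA of mouse cells. The members were 10 genes chosen by symbol, namely Ezh1, Ezh2, Eed, Suz12, Jarid2, Mtf2, Phf19, Aebp2, Rbbp4 and Rbbp7. All 10 were found in each of the 3 count tables, which list 25239, 25229 and 48440 genes, and all 10 passed the filter of at least 10 reads in every comparison. The series holds 36 libraries.

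P-bodies gather untranslated mRNA and RNA-binding proteins without a membrane, and the study asked which mRNAs they hold in different cell types. P-bodies were sorted as GFP-LSM14A particles after lentiviral expression of the fusion. The study's cytoplasmic fraction was a resuspended centrifugation pellet, from which the P-bodies were sorted. Aliquots of it taken before sorting served as cytoplasm, so that this cytoplasm was not free of P-bodies. All P-body and cytoplasm groups had 2 libraries each. Naive ES cells were grown in 2i and LIF, and primed cells were made from them with activin and bFGF. MEFs were embryonic fibroblasts carrying doxycycline-inducible reprogramming factors at Col1a1, the M2-rtTA activator at Rosa26 and a Pou5f1-EGFP reporter. Day 3 cells were such MEFs after 3 days of factor induction, either with a control or with a Nudt21 knockdown by shRNA. Nudt21 is known for steering cleavage towards distal poly(A) sites. Ago2 KO ES cells came from CRISPR deletion and single-cell cloning, so that this group rests on a clonal line. For ribosome occupancy, GFP-LSM14A ES cells carried a homozygous Ddx6-FKBP12F36V degron with HA and mCherry, also as a single-cell clone. They were harvested after acute dTAG-13 treatment, given for hours rather than days (DDX6 degron), or alongside it as controls. Cycloheximide was given to both arms before harvest. Each arm had 3 polysome and 3 total RNA libraries. DDX6 is an RNA helicase needed for P-bodies. The polysome samples were pooled ribosome-containing sucrose fractions.

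PRC2 methylates histone H3 on lysine residue K27 and keeps developmental genes silent. EZH1 and EZH2 are its alternative methyltransferase subunits, EED and SUZ12 are needed for activity, and RBBP4 and RBBP7 are histone-binding proteins that other chromatin complexes share. MTF2 and PHF19 are accessory subunits of the PRC2.1 form, and JARID2 and AEBP2 of the PRC2.2 form. ES cells are known for high PRC2 levels, but the complex is not needed to keep them growing.

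The libraries held between 6769727 and 31185799 reads assigned to genes. No replicate pair agreed within sampling noise, since the chi-square per degree of freedom ran from 1.78 to 306. The spread was widest in Ago2 KO cytoplasm (SD of the log2 difference 0.603), naive cytoplasm (0.428) and day 3 control P-bodies (0.387). The study calls its P-body replicates biologically independent, and GEO's labels do not name the culture each came from, so p-values measure the spread between these libraries. Nudt21 was at 4.87 to 5.94 CPM, counts scaled to library size, in the 4 knockdown libraries against 88.9 to 109.8 in the 4 day 3 controls, and Ago2 was at 2.54 to 4.83 CPM in the Ago2 KO libraries. The degron removes DDX6 protein, so its mRNA checks nothing. Pluripotency markers summed to 2447 to 2933 CPM in naive libraries, and primed markers to 357.7 to 597.9 CPM in primed libraries. Fibroblast markers summed to 12020 to 44320 CPM in MEF libraries. In MEF P-bodies, lung epithelium markers summed to 6.57 and 95.98 CPM, with 3 of 4 over 1 CPM, while all 4 were at 0 in MEF cytoplasm. Leukocyte markers summed to between 5.54 and 30.78 CPM in MEF P-bodies, with 3 of 3 over 1 CPM, against 2.29 to 3.11 in MEF cytoplasm, and erythroid markers to 0.536 to 3.17 against 0. The part of these 3 lists in the MEF values below was not tested. In bulk RNA, fewer cells of a type and less RNA per cell cannot be told apart.

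Because the study links P-body content to microRNAs, 3 mature mouse microRNAs are shown with their seed, bases 2 to 8, in capitals (RefSeq, GRCm38.p6). Of these, the study's text names let-7. It also names miR-300 and miR-381, which were not searched for here. The miR-294 seed is typical of ES cells, let-7 of differentiated cells, and miR-101 is known as a regulator of Ezh2.
mmu-miR-294-3p: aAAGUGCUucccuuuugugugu
mmu-let-7a-5p: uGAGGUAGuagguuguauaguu
mmu-miR-101a-3p: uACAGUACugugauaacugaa

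The 3′ UTRs of the longest coding transcripts (GENCODE M21, mm10) were searched on the sense strand for the 7 letters pairing with each seed. These are AGCACTT for the miR-294 seed. For the let-7 seed they are CTACCTC. For the miR-101a seed they are GTACTGT. Ezh2 held 1 let-7a match and 2 miR-101a matches, and Eed held 1 miR-101a match, as printed here with the matching letters in capitals because these short UTRs belong to core subunits. Aebp2 held 1 miR-294 match and 2 miR-101a matches, Rbbp7 held 1 of each, and Ezh1 held 1 miR-294 match, which are not printed.
Ezh2 let-7a match, chr6:47530527-47530540, minus strand: catctaCTACCTCt
Ezh2 miR-101a match 1, chr6:47530475-47530496, minus strand: ttcaggaaccttgaGTACTGTg
Ezh2 miR-101a match 2, chr6:47530420-47530441, minus strand: tctgaatttgcaaaGTACTGTa
Eed miR-101a match, chr7:89954778-89954799, minus strand: tgtttacattctttGTACTGTc

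Among 3′ UTRs within 0.8 to 1.25 times the length, 3.09% held the let-7a letters and 2.94% the miR-101a letters at the length of Ezh2. At that of Eed, 1.79% held the miR-101a letters. At the length of Aebp2, 45.0% held the miR-294 letters and 28.6% those of miR-101a, at that of Rbbp7 6.50% and 5.45%, and at that of Ezh1 19.6% held the miR-294 letters. Mtf2, Suz12, Jarid2, Phf19 and Rbbp4 held none of the 3 motifs. At the length of the Mtf2 3′ UTR, 2059 bases, 22.1% of UTRs held the miR-294 letters and 14.1% those of miR-101a. A match is a string of letters and was not tested as a site. The motifs were chosen with results of these data known. The member transcripts ranged in GC content from 38.2% for Mtf2, which lies at the 5.41 percentile of 21652 coding genes, to 53.9% for Phf19, with a median of 49.1% over all genes.

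In naive ES cells, PRC2 mRNA was P-body-enriched for 5 of the 10 members and depleted for 0, where 38.0% of all 15630 genes tested passed edgeR's quasi-likelihood test, 22.6% higher and 15.4% lower. Mtf2, which recruits PRC2 to CpG islands, changed by far the most among the members. The P-body replicates held 8985 and 8951 CPM of it and the cytoplasm replicates 491 and 1052 CPM. It ranked 2 and 1 among all genes in those P-body libraries. The groups did not overlap, although the cytoplasm libraries were apart from each other by more than the P-body libraries were. Mtf2 was 11.6-fold higher in P-bodies (log2 fold change 3.54 ± 0.38 SE, adjusted p = 0.00174), at the 98.8 percentile of all genes. Exons of Tmed5, on the opposite strand, cover 6.93% of the exon bases of Mtf2 on chromosome 5. Tmed5 itself was higher in naive P-bodies (2.90 ± 0.28), at 310.4 CPM. In MEFs Tmed5 had 1.0 ± 0.11, with means of 249.7 CPM in P-bodies and 128.9 in cytoplasm, where Mtf2 had 184.0 and 126.7. In day 3 controls Tmed5 had 1.12 ± 0.13, with means of 132.0 and 62.8 CPM, where Mtf2 had 122.2 and 78.2. The part of Tmed5 in the Mtf2 values was not tested. Reads of these 2 genes cannot be told apart where their exons overlap if strand was not used. The same holds for Rbbp4, where Sync covers 8.94% of exon bases, and for Rbbp7, where Txlng covers 5.98%. In naive P-bodies Txlng had a log2 fold change of 2.07 ± 0.21 and Sync of 0.84 ± 0.22.

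The core subunits were enriched by smaller amounts. Eed, the subunit that binds the methylated histone tail, was at 265.5 and 269.6 CPM in naive P-bodies and 120.0 and 130.0 in cytoplasm (1.10 ± 0.10, adjusted p = 0.00108). Ezh2 was at 288.7 and 286.8 CPM against 189.2 and 135.9 (0.82 ± 0.17, adjusted p = 0.0164). Suz12, the scaffold of the complex, was at 211.5 and 204.3 CPM against 109.1 and 149.2 (0.69 ± 0.17, adjusted p = 0.0260). In these genes every P-body value lay above every cytoplasm value, as it did in Ezh1, Mtf2, Phf19 and Rbbp7. The share of all genes without overlap is not given. Ezh1 passed only narrowly, at 84.8 and 69.0 CPM against 57.3 and 49.1 (0.53 ± 0.15, adjusted p = 0.0438).

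The other members did not pass in naive cells. Jarid2, which joins PRC2 with its own chromatin-binding domain, was at 616.6 and 593.9 CPM in P-bodies and 536.2 and 687.6 in cytoplasm, which overlap, and its log2 fold change was -0.02 ± 0.14. Phf19 was low, at 3.29 and 5.85 CPM against 2.75 and 2.69. Rbbp7 had 0.28, Aebp2 -0.26 and Rbbp4 -0.29 on the log2 scale. Eed and Mtf2 were called without any single naive library, whereas Ezh1, Ezh2 and Suz12 lost the call without P-body replicate 1 (0.38, 0.82 and 0.67, with adjusted p of 0.353, 0.105 and 0.160) and without P-body replicate 2 (0.68, 0.83 and 0.72, with adjusted p of 0.124, 0.101 and 0.135). Jarid2 passed at 0.19 without cytoplasm replicate 2 and at -0.19 without cytoplasm replicate 1. Fits without a naive cytoplasm library took their spread from the P-body pair alone. That pair lay closer together (SD of the log2 difference 0.127) than the cytoplasm pair (0.428). Phf19, Rbbp4 and Rbbp7 passed without cytoplasm replicate 1 (0.79, -0.40 and 0.35) and without replicate 2 (0.77, -0.16 and 0.23), and Aebp2 without replicate 1 (-0.42).

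**Figure D1:**
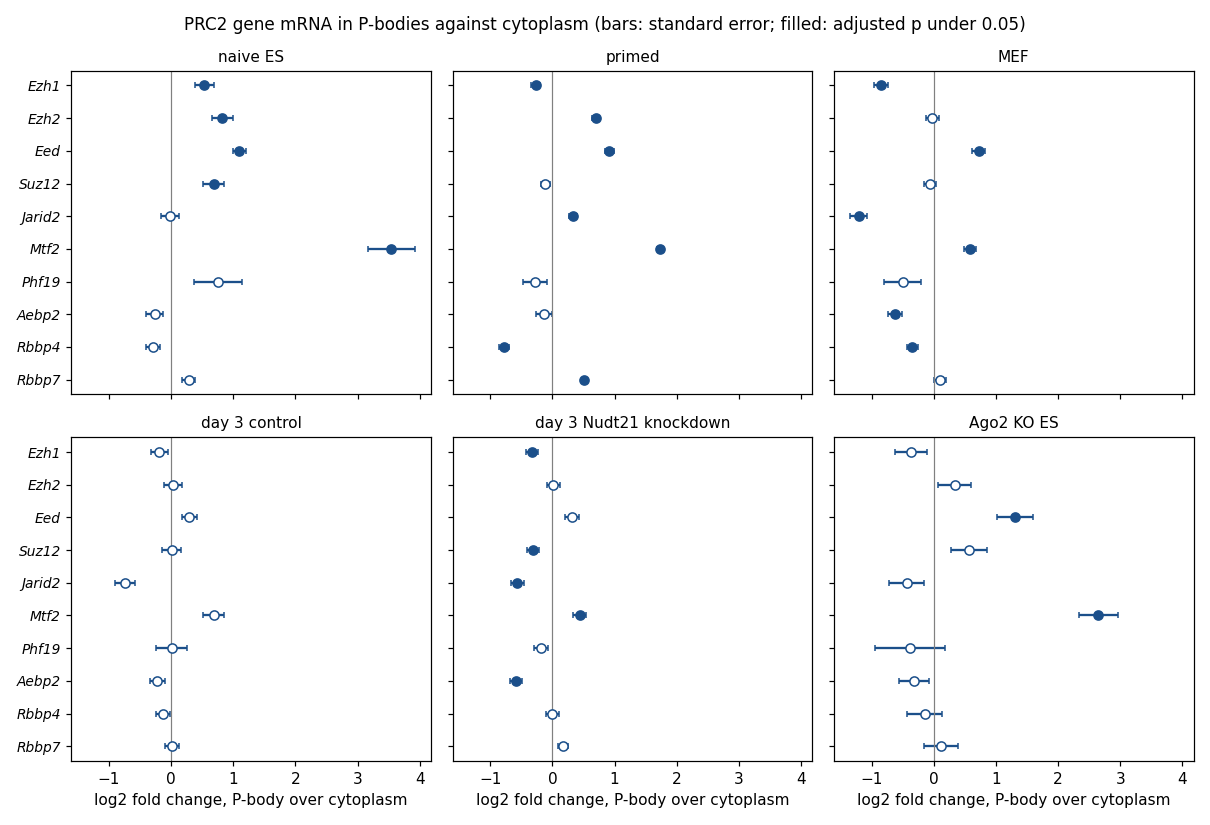
Log2 fold change of each PRC2 gene between P-body and cytoplasm (x axis) by gene (y axis) in 6 cell groups, with bars of 1 standard error and filled points for adjusted p under 0.05. Mtf2 lies farthest to the right in naive ES (3.54), primed (1.73) and Ago2 KO cells (2.65), and Jarid2 farthest to the left in MEFs (-1.21).

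In primed cells, 5 members were P-body-enriched and 2 depleted, against 26.5% of all 16177 genes called higher and 24.2% called lower, 50.7% in all. Mtf2 was at 1175 and 1142 CPM in P-bodies and 346.8 and 343.2 in cytoplasm, a 3.31-fold difference (1.73 ± 0.04, adjusted p = 4.62e-11). Eed was at 141.8 and 129.8 CPM against 68.2 and 73.6 (0.92 ± 0.08), and Ezh2 at 201.6 and 195.4 against 120.3 and 121.4 (0.69 ± 0.06). These 3 genes were the members called higher in both naive and primed cells. Rbbp7 (0.51 ± 0.04) and Jarid2 (0.33 ± 0.06, at 333.5 and 361.8 CPM against 259.4 and 287.3) were also higher. With all groups of the table fitted together, Jarid2 lost the call (0.35, adjusted p = 0.0631).

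Rbbp4 was depleted from primed P-bodies, at 192.3 and 234.4 CPM against 346.9 and 377.1 (-0.78 ± 0.08, adjusted p = 4.38e-06). Rbbp7, the other histone-binding member, thus had the opposite sign in the same libraries. Ezh1 was lower at 80.6 and 84.8 CPM against 93.3 and 103.3 (-0.27 ± 0.08, adjusted p = 0.0111), and this call was lost without P-body replicate 1 (-0.23, adjusted p = 0.103) and with all groups fitted together (-0.25, adjusted p = 0.198). Phf19 passed without cytoplasm replicate 1 (-0.53, adjusted p = 0.0195). Of the deposited values of Rbbp4 and Rbbp7, 11 of 20 and 18 of 20 are not whole numbers, so their values are uncertain. Copies of these genes elsewhere in the genome were not searched for. Among the other members, 11 of 20 values of Aebp2, 9 of Mtf2, 8 of Ezh2 and between 0 and 7 of the rest were not whole either. The same uncertainty holds for members with such values.

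In MEFs, 2 members were enriched and 4 depleted, against 26.6% of all 16198 genes called higher and 28.7% called lower, 55.3% in all. Jarid2 was at 15.3 and 17.8 CPM in P-bodies and 41.7 and 37.3 in cytoplasm, which do not overlap (-1.21 ± 0.13, adjusted p = 6.55e-05). Ezh1 was at 23.1 and 23.4 CPM against 43.4 and 42.9 (-0.85 ± 0.11, adjusted p = 0.000151). Aebp2 (-0.62 ± 0.11) and Rbbp4 (-0.34 ± 0.09) were lower as well. Rbbp4 lost the call without cytoplasm replicate 1 (-0.31, adjusted p = 0.136) or cytoplasm replicate 2 (-0.35, adjusted p = 0.0942).

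Eed was the more enriched of the 2 higher genes in MEFs, at 109.5 and 95.1 CPM against 61.3 and 66.2 (0.72 ± 0.10, adjusted p = 0.00028). Mtf2 was at 175.8 and 192.1 CPM against 121.3 and 132.2 (0.58 ± 0.10, adjusted p = 0.000932). Ezh2, at 58.6 and 66.0 CPM against 63.6 and 67.0, overlapped between fractions (-0.02 ± 0.11). Rbbp7 passed without P-body replicate 1 (0.20, adjusted p = 0.0284). Eed and Mtf2 were the 2 members called higher in naive, primed and MEF cells alike, although in MEFs Mtf2 lost the call with all groups fitted together (0.54, adjusted p = 0.0599).

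**Figure D2:**
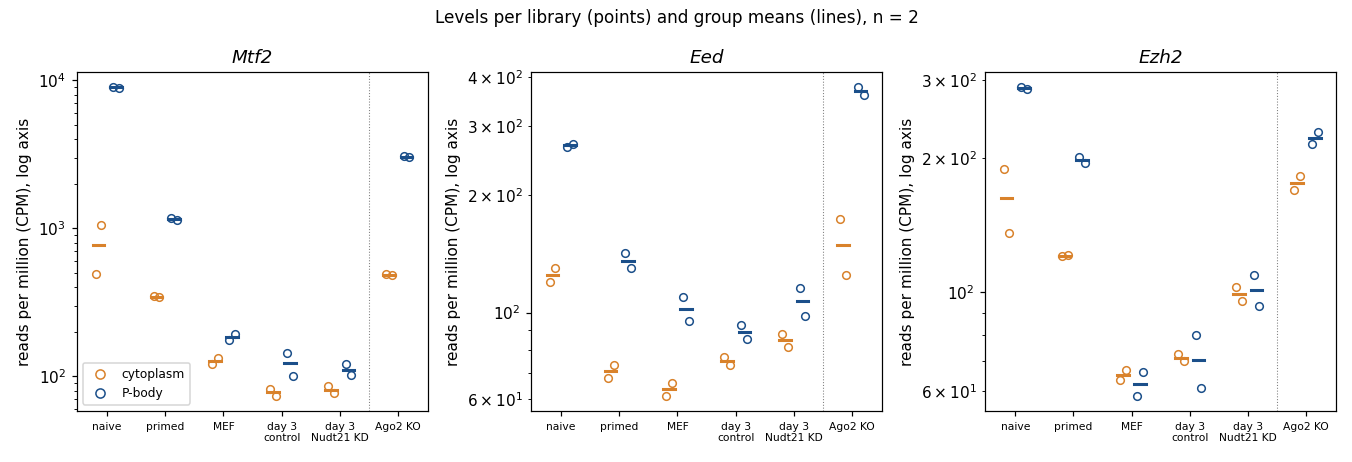
Level in each library (points, CPM on a log axis) and group mean (lines) of Mtf2, Eed and Ezh2, for cytoplasm and P-body by cell group. Ago2 KO libraries, right of the dotted line, come from a table normalised separately, and Mtf2 runs from 73.9 to 8985 CPM over the other groups.

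At day 3 of reprogramming, 0 members passed in control cells, where 0.646% of 15786 genes did, 0.196% higher and 0.450% lower. At an unadjusted p under 0.05 there were 3 members, and DESeq2 called 2, where it called 13.2% of all genes. Mtf2 was at 144.1 and 100.3 CPM against 82.5 and 73.9 (0.68 ± 0.17, adjusted p = 0.0977), and Jarid2 at 28.2 and 21.1 against 43.5 and 41.5 (-0.75 ± 0.16, adjusted p = 0.0789). The groups did not overlap for either gene, nor for Ezh1, Eed, Aebp2 and Rbbp4, and the share of all genes without overlap is not given. Without P-body replicate 1, edgeR called 6 members and without P-body replicate 2 it called 4, including in both cases Mtf2 (0.46 and 0.87), Jarid2 (-0.91 and -0.60), Eed (0.29 and 0.30) and Aebp2 (-0.22 and -0.22). Of all genes tested, 57.0% and 31.8% were called in these same fits.

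With Nudt21 knocked down, 1 member was enriched and 4 were depleted at day 3, against 21.9% of 15995 genes, 9.04% higher and 12.8% lower. Mtf2 was at 120.0 and 101.9 CPM against 85.5 and 77.0 (0.44 ± 0.11, adjusted p = 0.0174). Jarid2 was at 53.8 and 57.1 CPM against 80.6 and 81.4 (-0.56 ± 0.10, adjusted p = 0.00356), and Aebp2 at 62.7 and 58.4 against 92.5 and 86.9 (-0.58 ± 0.10). Both PRC2.2 genes were thus lower in P-bodies of these cells, as in MEFs (Jarid2 -1.21, Aebp2 -0.62). In day 3 controls they had -0.75 and -0.22 without a call. Ezh1 (-0.32) and Suz12 (-0.31) were lower by less. Without cytoplasm replicate 1, Mtf2 (0.49), Ezh1 (-0.31) and Suz12 (-0.33) lost the call, and without cytoplasm replicate 2 these (0.39, -0.35 and -0.29) and Jarid2 (-0.53) did. Ezh1 also lost it without P-body replicate 1 (-0.25), and Eed passed without P-body replicate 2 (0.44). With all groups fitted together Mtf2 (0.45, adjusted p = 0.231), Ezh1 (-0.31, adjusted p = 0.144) and Suz12 (-0.29, adjusted p = 0.191) lost it.

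The difference in enrichment between knockdown and day 3 control was tested on its own, and 0 members passed, with 2 of 16973 genes (0.0118%) passing. By unadjusted p under 0.05 there was 1 member, Aebp2 (-0.33 ± 0.15), and DESeq2 called 0. For Mtf2 the difference was -0.22, with a 95% interval from -0.64 to 0.20.

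In Ago2 KO ES cells, 2 members were enriched and 0 depleted, against 6.51% of 16808 genes, 5.47% higher and 1.05% lower. Mtf2 was at 3066 and 3012 CPM in P-bodies and 489.8 and 480.1 in cytoplasm (6.27-fold, log2 2.65 ± 0.31, adjusted p = 0.00257). Eed was at 376.8 and 361.0 CPM against 173.6 and 124.6 (1.31 ± 0.29, adjusted p = 0.0335). Ezh2 (0.34 ± 0.26) and Suz12 (0.57 ± 0.30) did not pass. Eed lost the call without P-body replicate 1 (1.28, adjusted p = 0.427) or replicate 2 (1.34, adjusted p = 0.291). Without cytoplasm replicate 1, Ezh1 (-0.64), Jarid2 (-0.80) and Aebp2 (-0.58) passed, and without cytoplasm replicate 2, Suz12 (0.83) did. The Ago2 KO libraries sit in a table of their own with no unedited cells, so no difference from naive cells was tested.

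**Figure D3:**
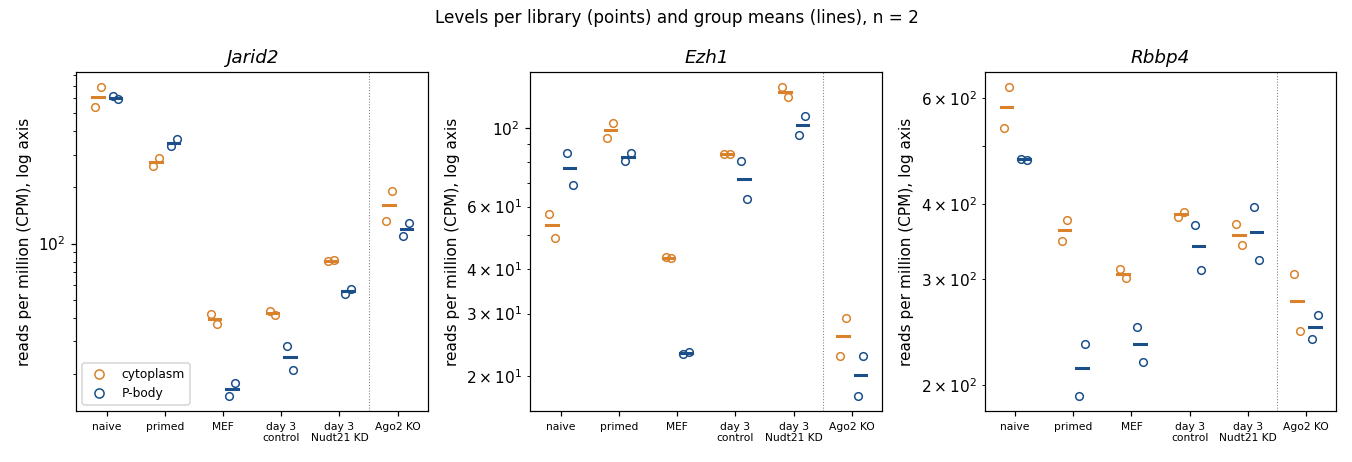
Level in each library (points, CPM on a log axis) and group mean (lines) of Jarid2, Ezh1 and Rbbp4, for cytoplasm and P-body by cell group, with Ago2 KO from a separate table right of the dotted line. Ezh1 is above cytoplasm in naive P-bodies and below it in primed and MEF P-bodies, and Jarid2 is lower in P-bodies of MEFs.

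The difference in enrichment between cell types was tested for each member. Between naive and primed cells 4 members passed, against 25.3% of 17199 genes, 13.9% higher and 11.4% lower. The enrichment of Mtf2 was higher in naive cells by 1.67 ± 0.38 on the log2 scale (adjusted p = 0.0126), that of Ezh1 by 0.66 ± 0.17 (adjusted p = 0.0221) and that of Suz12 by 0.66 ± 0.19 (adjusted p = 0.0337), while that of Rbbp7 was lower (-0.37 ± 0.10, adjusted p = 0.0299). Ezh1 had opposite signs in the 2 cell types. For Eed (0.04, 95% interval -0.21 to 0.29) and Ezh2 (-0.01, interval -0.38 to 0.36) no difference was detectable. The Rbbp7 call was lost under all 6 alternatives that kept every library. The Mtf2 call was lost without naive P-body replicate 1 or 2 (1.68 and 1.66, adjusted p = 0.0522 and 0.0542) and without primed P-body replicate 2 (1.77, adjusted p = 0.0501). Ezh1 lost it without naive P-body replicate 1 (0.52), primed P-body replicate 1 (0.74) or primed cytoplasm replicate 2 (0.59), Suz12 without any single library except those of naive cytoplasm (0.65 to 0.78), and Rbbp7 without any of those same libraries (-0.39 to -0.23). Ezh2 turned to 0.24 (adjusted p = 0.0305) without naive cytoplasm replicate 1 and was -0.22 (adjusted p = 0.0402) without replicate 2. Jarid2 passed without naive cytoplasm replicate 1 or 2 (-0.65 and -0.28), Aebp2 without replicate 1 (-0.43), and Rbbp4 without naive cytoplasm replicate 2 (0.48) or primed P-body replicate 2 (0.63).

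Between naive cells and MEFs, 4 members differed and all were higher in naive cells, against 41.3% of 18143 genes, 21.5% higher and 19.8% lower. These were Mtf2 (2.76 ± 0.40, adjusted p = 0.000375), Ezh1 (1.19 ± 0.19), Jarid2 (1.0 ± 0.21) and Ezh2 (0.66 ± 0.21, adjusted p = 0.0306). The median of all genes lay at -0.17 in this contrast, and at 0 with all groups fitted together, where 7 members passed. Ezh2 lost the call without naive P-body replicate 1 or 2 (0.66 in both, adjusted p = 0.0974 and 0.101). Suz12 (0.56 with all libraries) passed without naive cytoplasm replicate 2 (0.82) or any 1 MEF library (0.72 to 0.88), and Eed without MEF P-body replicate 1 (0.53). Between day 3 control and MEFs, Ezh1 alone passed (0.70 ± 0.18, adjusted p = 0.0244), against 14.7% of 17488 genes (9.59% higher and 5.13% lower), and was lost without any 1 of the MEF libraries (0.67 to 0.73) or of the day 3 cytoplasm libraries (0.65 in both). Eed passed without day 3 P-body replicate 1 (-0.47) and Jarid2 without replicate 2 (0.61).

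In cytoplasm, the level of most members fell from naive to primed cells. Of the 10, 6 were lower and 3 higher in primed cells, against 43.8% of 16125 genes, 21.6% higher and 22.1% lower. Aebp2 went from 87.1 and 109.6 CPM to 22.7 and 28.5 (-1.93 ± 0.19, adjusted p = 0.00103), and Jarid2 from 536.2 and 687.6 to 259.4 and 287.3 (-1.15 ± 0.15). Mtf2 (-1.15 ± 0.34), Eed (-0.81), Rbbp4 (-0.67) and Suz12 (-0.61) were lower too. Phf19 was higher, from 2.75 and 2.69 CPM to 9.51 and 14.3 (2.14 ± 0.31), as were Ezh1 (0.90 ± 0.14) and Rbbp7 (0.77 ± 0.11). The PRC2.1 members thus moved in opposite directions. Without primed cytoplasm replicate 1 the calls of Eed, Suz12, Jarid2, Mtf2, Rbbp4 and Rbbp7 were lost (-0.75, -0.61, -1.08, -1.16, -0.61 and 0.78), and without replicate 2 those of Ezh1, Eed, Suz12, Mtf2, Phf19, Rbbp4 and Rbbp7 (0.85, -0.84, -0.59, -1.12, 1.84, -0.71 and 0.78). Ezh2, at -0.41 with all libraries, passed without naive cytoplasm replicate 2 (-0.62).

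MEF cytoplasm held less of 6 members than naive cytoplasm and more of 0, against 71.8% of 16871 genes, 35.9% higher and 36.0% lower. Jarid2 fell from 536.2 and 687.6 CPM to 41.7 and 37.3 (-3.95 ± 0.18, adjusted p = 5.12e-05). Mtf2 had -2.61 ± 0.37, Ezh2 -1.32 ± 0.18, Suz12 -1.26 ± 0.17, Eed -0.97 ± 0.11 and Rbbp4 -0.92 ± 0.12. Ezh1 (-0.30 ± 0.13, adjusted p = 0.0866) and Aebp2 (-0.15) did not pass. Ezh1, Aebp2 and Rbbp7 passed without 1 naive cytoplasm library, Ezh1 without replicate 2 (-0.43), Aebp2 without replicate 1 (-0.35) and Rbbp7 without either (0.32 and 0.20).

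Per kilobase of transcript, Ezh2 in naive cytoplasm stood at 58.3 ± 13.5 CPM per kb and Ezh1 at 12.6 ± 1.4 (SD, n = 2). In MEF cytoplasm these were 23.4 ± 0.85 and 10.3 ± 0.074. On that scale Phf19 was the least abundant member in naive cytoplasm (0.726 ± 0.011) and Mtf2 had the highest mean (190.0 ± 97.7), which does not differ from Rbbp7 (161.8 ± 10.5) or Rbbp4 (131.7 ± 14.6) beyond its spread.

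**Figure D4:**
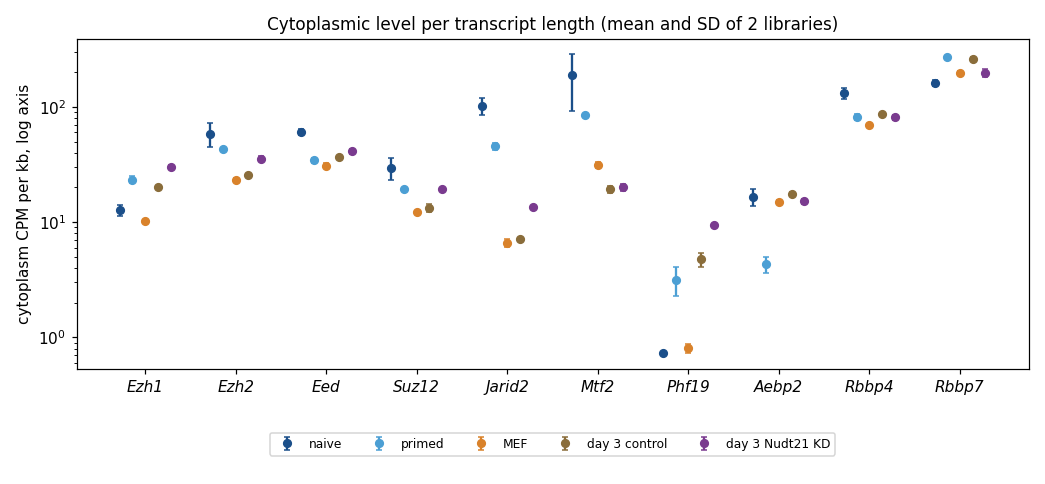
Cytoplasmic level per transcript length (CPM per kb, log axis) of each member by cell group, as mean and SD of 2 libraries. Jarid2 goes from 102.0 in naive to 6.59 in MEF cytoplasm. Rbbp7 is at 161.8 in naive, 273.0 in primed and 198.2 in MEF cytoplasm.

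After 3 days of reprogramming, 7 members were higher and 1 was lower in cytoplasm than in MEFs, against 69.3% of 16108 genes, 35.5% higher and 33.7% lower. Phf19 went from 2.81 and 3.21 CPM in MEFs to 19.5 and 16.1 (2.62 ± 0.17, adjusted p = 1.04e-09) and Ezh1 from 43.4 and 42.9 to 84.3 and 84.3 (1.02 ± 0.07). Rbbp7 (0.45), Rbbp4 (0.38), Eed (0.30), Aebp2 (0.28) and Ezh2 (0.18) rose by less. Mtf2 fell, from 121.3 and 132.2 CPM to 82.5 and 73.9 (-0.64 ± 0.07, adjusted p = 1.40e-06). Jarid2 (0.16) and Suz12 (0.16) did not pass. Ezh2 lost the call without any 1 of the 4 libraries (0.14 to 0.21), and Suz12 passed without day 3 cytoplasm replicate 2 (0.24). With all groups fitted together Ezh2 (0.13), Eed (0.24) and Aebp2 (0.23) lost it (adjusted p = 0.517, 0.0941 and 0.184), and Ezh2 also did with DESeq2 (0.17, adjusted p = 0.114) or its size factors in edgeR (adjusted p = 0.0584). Fibroblast markers summed to 39960 to 44320 CPM in MEF cytoplasm and 5297 to 5454 at day 3, and pluripotency markers to 47.6 to 54.7 and 627.5 to 628.9. Their part in these values was not tested.

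With Nudt21 knocked down at day 3, cytoplasm held more of 5 members and less of 2 than the control, against 49.6% of 15990 genes, 24.6% higher and 25.0% lower. Phf19 was at 36.0 and 35.1 CPM against 19.5 and 16.1 in the control (1.0 ± 0.11), and Jarid2 at 80.6 and 81.4 against 43.5 and 41.5 (0.93 ± 0.08, adjusted p = 4.92e-08). Ezh1 (0.59), Suz12 (0.55) and Ezh2 (0.48) were higher, and Rbbp7 (-0.40) and Aebp2 (-0.21) were lower. Mtf2 overlapped between the groups (0.06 ± 0.08). The pluripotency markers summed to 1258 to 1447 CPM in knockdown cytoplasm and 627.5 to 628.9 in the control. Fibroblast markers summed to 1631 to 1641 CPM against 5297 to 5454, and leukocyte markers to 98.8 to 104.4 against 11.6 to 15.5, with 1 of 3 over 1 CPM in both. The part of these lists in the values was not tested. Aebp2 lost the call with DESeq2 (-0.20, adjusted p = 0.0512), with all groups fitted together (-0.21, adjusted p = 0.284) and without control replicate 1 (-0.16) or knockdown replicate 2 (-0.17), and without knockdown replicate 2 Eed passed (0.23), as did Rbbp4 without knockdown replicate 1 (-0.14).

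Ribosome occupancy was measured as polysome against total RNA. In control ES cells 1 member was higher in polysomes and 5 were lower, against 42.9% of 15411 genes, 18.8% higher and 24.1% lower. Jarid2 was at 146.7, 137.3 and 127.8 CPM in polysomes and 266.8, 268.5 and 236.3 in total RNA (-0.91 ± 0.07, adjusted p = 1.59e-08). Rbbp7 was at 173.7, 171.9 and 182.7 CPM against 326.2, 333.4 and 290.3 (-0.85 ± 0.07), and Ezh2 at 163.9, 156.9 and 168.7 against 242.7, 237.0 and 215.0 (-0.51 ± 0.07). The fractions did not overlap for any of these 3 genes, nor for Ezh1, Rbbp4 and Mtf2, and the share of all genes without overlap is not given. Ezh1 (-0.28 ± 0.07) and Rbbp4 (-0.25 ± 0.06) were lower by less. Mtf2 was higher, at 614.9, 601.1 and 660.0 CPM against 583.7, 527.2 and 473.3 (0.24 ± 0.07, adjusted p = 0.0152), and was lost without polysome replicate 3 (0.19, adjusted p = 0.0634). Eed (-0.01), Suz12 (-0.02) and Aebp2 (0.01) showed no detectable difference.

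After DDX6 loss the same 6 members passed in the same directions, against 50.9% of 15638 genes (24.0% higher and 26.8% lower), while Eed, Suz12, Phf19 and Aebp2 passed in neither arm. Rbbp7 had -0.90 ± 0.05, Jarid2 -0.84 ± 0.05, Ezh2 -0.58 ± 0.05, Rbbp4 -0.22 ± 0.05, Ezh1 -0.20 ± 0.06 and Mtf2 0.29 ± 0.04. Aebp2 passed without degron polysome replicate 3 (0.14, adjusted p = 0.0266). The change in occupancy between arms was called by edgeR for 0 of 16345 genes (0%), for 0 members at an unadjusted p under 0.05, and by DESeq2 for 0 members. For Mtf2 the change was 0.05 with a 95% interval from -0.13 to 0.22, and for Jarid2 0.07 with an interval from -0.10 to 0.24.

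**Figure D5:**
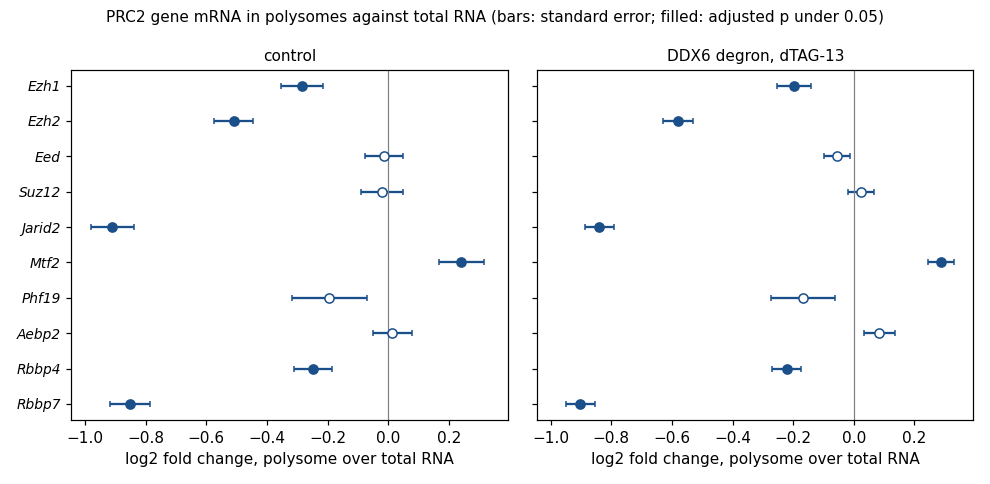
Log2 fold change of each member between polysome and total RNA (x axis) by gene (y axis) in control and DDX6 degron ES cells, with bars of 1 standard error and filled points for adjusted p under 0.05. Jarid2 and Rbbp7 lie farthest left in both arms, between -0.91 and -0.84, and Mtf2 lies right of 0.

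In total RNA after DDX6 loss, 1 member was lower, Aebp2, against 3.31% of 15380 genes, 1.24% higher and 2.07% lower. It was at 142.0, 137.5 and 144.4 CPM in degron cells and 172.0, 174.3 and 153.0 in controls (-0.24 ± 0.06, adjusted p = 0.0429). The groups did not overlap, but the call was lost when any 1 of the 6 libraries except control replicate 3 was left out (-0.26 to -0.21). Without control replicate 3, Eed (-0.18), Suz12 (-0.25), Jarid2 (-0.22) and Mtf2 (-0.31) passed as well. With all libraries, Mtf2 had -0.24 ± 0.07 and did not pass in edgeR (adjusted p = 0.0686). It passed with DESeq2 (adjusted p = 0.018), with no filter on low counts (adjusted p = 0.0204) and with all groups fitted together (adjusted p = 0.0278).

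Other Polycomb genes were counted from lists of PRC2 partners (5 genes), PRC1 subunits (26) and H3K27 demethylases with the PR-DUB deubiquitinase (6). In naive P-bodies 10 of 26 PRC1 genes were higher and 3 lower, where 22.6% and 15.4% of all genes were, with a median log2 fold change of 0.19 against -0.06 over all genes tested. In primed P-bodies 15 were higher and 4 lower, where 26.5% and 24.2% of all genes were (median 0.39 against 0.00), and in MEF P-bodies 5 were higher and 12 lower, where 26.6% and 28.7% of all genes were (median -0.11 against 0.03). Of the 10 PRC2 members the medians were 0.61, 0.11 and -0.20 in these 3 cell types. Named by the largest changes, Lcorl, a PRC2.1 partner gene, had 3.35 in naive cells, and Bmi1, a PRC1 ring partner, 1.80 in primed cells. Bcor, part of a variant PRC1, was lower in primed (-1.05) and MEF P-bodies (-1.47), and Yaf2 was the highest in MEF P-bodies (0.66).

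Of the PRC2 partners, 4 were tested in each P-body comparison except Ago2 KO. Of these, 2 were higher and 1 lower in naive P-bodies, 3 and 0 in primed and 0 and 1 in MEF P-bodies. Of the demethylase and PR-DUB genes, 5 were tested in naive cells and 6 in primed cells and MEFs. Among them, 3 were higher and 0 lower in naive, 3 and 1 in primed and 1 and 3 in MEF P-bodies. The shares of all genes are those given for the PRC1 list. At day 3, 0 genes of these 3 lists passed in control cells, where 0.646% of all genes did, with 1, 9 and 3 of the partner, PRC1 and demethylase lists at an unadjusted p under 0.05. In knockdown cells 8 PRC1 genes, 2 partners and 2 demethylase and PR-DUB genes were lower and 0 higher, Phc2 the most (-1.26), where 12.8% of all genes were lower and 9.04% higher. In Ago2 KO cells 2 of the 3 partners tested and 1 PRC1 gene were higher and 0 lower, Lcor the most (2.20). There 5.47% of all genes were higher and 1.05% lower. In control ribosome occupancy 9 PRC1 genes were higher and 9 lower, where 18.8% and 24.1% of all genes were, from Bmi1 (0.45) to Bcor (-1.15), and in the DDX6 degron 12 and 9, where 24.0% and 26.8% of all genes were, from Phc3 (0.54) to Bcor (-1.15).

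By pattern over the 20 P-body and cytoplasm libraries of the shared table, the genes most like Ezh2 among 9995 were Prim2 (Pearson r = 0.96), Ccdc14 (0.957) and Cenpn (0.957). Those most like Ezh1 were Zkscan17 (0.956), Suv39h1 (0.951) and Sft2d2 (0.947). For Mtf2, chosen after its values were seen, these were Mtif2 (0.987), Zfp977 (0.977) and Cep57l1 (0.97). The libraries share cell types and fractions, so these values describe likeness only.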

How the data were processed

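Gene counts as deposited by the authors were used. For P-body and cytoplasm libraries the submitters' notes name HISAT2, featureCounts and mm10, and the study's methods name refGene annotation. The Ago2 KO and polysome tables were deposited as estimated counts from salmon. Of the deposited values in a library, 5.05% to 25.7% were not whole numbers, and all were rounded. The deposited tables of comparisons, which hold the authors' fold changes, were not used. Libraries were grouped by GEO's labels. Genes with at least 10 reads summed over a comparison's libraries were tested with edgeR 4.0.16 (TMM, quasi-likelihood, two-sided, Benjamini-Hochberg adjustment over all genes tested, threshold 0.05) in R 4.3.3. Differences of enrichment used the interaction contrast. Errors are standard errors, and 95% intervals are 1.96 of them either side. CPM per library used TMM factors over a whole table, so levels are not compared between tables. Alternatives were DESeq2 1.42.0, its size factors, other filters on low counts, a replicate block, all groups fitted together and each library left out. The scripts were tested on simulated data. Intervals cover spread between libraries only, and depth is given in the text. Members, lists and motifs were chosen with earlier results of these data known. Named members were all 10, and named other Polycomb genes were those with the largest called change each way at a mean of at least 10 CPM. A result that this rule would name is not reported here. Figures were drawn with matplotlib.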

Additional observations from a re-analysis of the deposited data

Results flagged for a closer look

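The P-body enrichment of 9 gene and cell-type pairs differed between cell types in the interaction test of edgeR (adjusted p under 0.05). Between naive and primed cells these were Mtf2 (1.67), Ezh1 (0.66), Suz12 (0.66) and Rbbp7 (-0.37), on the log2 scale as naive minus primed. Between naive cells and MEFs they were Mtf2 (2.76), Ezh1 (1.19), Jarid2 (1.0) and Ezh2 (0.66). Between day 3 control cells and MEFs it was Ezh1 (0.70). Naive cells enter 8 of these differences with the same 4 libraries, so they are not independent of each other. Of all genes tested, 25.3%, 41.3% and 14.7% passed in these contrasts, in the order given.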

How the results depend on the processing

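Values are counts of the 10 members called. With all libraries, day 3 control P-body enrichment went from 0 to 2 with DESeq2, 2 with no filter on low counts, 1 with a replicate block and 1 with all groups fitted together. With all groups fitted together, Nudt21 knockdown enrichment went from 5 to 2, naive minus MEF enrichment from 4 to 7 and day 3 minus MEF cytoplasm from 8 to 5. DDX6 degron total RNA went from 1 to 2 with DESeq2, no filter or all groups together, and to 0 with the replicate block. Other alternatives that kept all libraries left counts within 1.5 times. Over those settings, 27 values of single genes gained a call, 20 lost it, 1023 did neither and 0 reversed. Leaving out each library gave 2 to 10 called for naive, 6 to 8 for primed, 5 to 7 for MEF, 0 to 6 for day 3 control, 1 to 6 for knockdown and 1 to 5 for Ago2 KO enrichment, 5 to 6 for control and 6 to 7 for degron occupancy. The share of all genes called ran from 13.4% to 66.1%, 42.3% to 50.7%, 35.4% to 64.0%, 0.534% to 57.0%, 6.48% to 36.8%, 2.76% to 34.6%, 37.3% to 47.3% and 46.8% to 49.4% in the same order. Leaving out a library gave 0 to 7 for naive minus primed, 3 to 6 for naive minus MEF and 0 to 2 for day 3 minus MEF enrichment, 2 to 10 for primed minus naive, 6 to 8 for MEF minus naive, 7 to 8 for day 3 minus MEF and 6 to 8 for knockdown minus control cytoplasm, and 0 to 5 for degron total RNA, with 13.4% to 41.7%, 32.2% to 45.8%, 1.5% to 32.0%, 14.3% to 62.5%, 54.7% to 78.1%, 65.5% to 65.7%, 43.8% to 48.3% and 0.0395% to 22.2% of all genes. A lone remaining library is assumed to vary like the other group. Jarid2 in naive cells ran from -0.19 to 0.19 and Ezh2 in naive minus primed from -0.22 to 0.24, the sign turning between the 2 naive cytoplasm libraries. Deviations of same-numbered libraries correlated at 0.60 in Ago2 KO, 0.20 in knockdown and 0.18 in day 3 control cells. The other comparisons ran from -0.06 to 0.20, all over 2 or 3 pairs. The study stored P-bodies with aliquots of the matching unsorted fraction and kept part of each polysome lysate as total RNA. The labels do not say which libraries match, so numbers were not taken as pairs in the main fits. With a replicate block, the share of all genes called went from 6.51% to 24.9% in Ago2 KO and from 0.646% to 5.08% in day 3 control enrichment. The cause of these changes was not tested. Where a library was left out, the fit had fewer samples and took its spread from the remaining libraries. Phf19 levels ran from 1.05 to 36.0 CPM.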
